A study of Mus musculus with 6 samples.

Results

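The genes described here are 10 members of the NF-kB pathway, namely the 5 subunit genes Nfkb1, Nfkb2, Rel, Rela and Relb, the inhibitor and cofactor genes Nfkbia, Nfkbiz and Bcl3, and the feedback genes Tnfaip3 and Ier3. They were chosen by name, as every noncontrol probe whose gene name in the scanner files equals a member. That gave 14 probes for 10 of the 29590 genes on the array, and all 84 of their spots on the 6 arrays were well above background. Signal was measured in mouse bone marrow-derived mast cells, which were grown in interleukin-3 at 10 ng/ml, with 1 single-colour array for each of 6 groups. In the groups with fibroblasts, mast cells were kept for 4 days on Swiss 3T3 cells, an established mouse embryo fibroblast line, with stem cell factor at 100 ng/ml.

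The 6 groups were mast cells labelled Pla2g3-/- on wild-type fibroblasts, Pla2g3+/+ mast cells on wild-type fibroblasts, wild-type mast cells on Lpar1-/- fibroblasts, wild-type mast cells on Lpar1+/+ fibroblasts, mast cells labelled Pla2g3-/- without fibroblasts, and Pla2g3+/+ mast cells without fibroblasts. Pla2g3 is the gene of a secreted phospholipase, and Lpar1 that of a lysophosphatidic acid receptor. The Lpar1-/- fibroblasts were made by CRISPR/Cas9 and single-cell cloning, so clone and genotype cannot be told apart. The RNA on an array had been pooled from 3 samples, so no group has a spread between cultures, no test was possible, and every difference below describes a pair of arrays. After coculture, mast cells were recovered as nonadherent cells or with magnetic beads against Kit, and the sources used here do not say by which way for these arrays. They also do not say whether stem cell factor was also given to mast cells grown alone.

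NF-kB is a dimer of Rel-family proteins that waits in the cytoplasm, bound by inhibitors of the IkB type. Ligands such as tumour necrosis factor and interleukin-1, or cross-linking of the IgE receptor on mast cells, activate a kinase that marks the inhibitor for destruction, and the freed dimer binds kappa B sites in promoters. Several of its targets are genes of the pathway itself: subunits that extend the response, and inhibitors that end it.

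Promoter sequences of members are given first, since kappa B sites in promoters are the known route of this feedback. RefSeq promoters (assembly GRCm38.p6) matched 7 members, with 10 start sites in all. Nfkb1, Relb and Nfkbiz had no entry. Promoters were searched on both strands, 250 bases before to 50 bases after the start, for the kappa B consensus and for the motif GGNNTTTCC, which overlaps it in part and was chosen after these sequences had been seen. Each of the motifs was found in 6 of the 7 members and at 8 of the 10 start sites, and in Rela neither was found. Among all 32851 promoters of this length, 4.51% held the consensus and 5.82% the motif GGNNTTTCC. The 4 promoters below belong to an inhibitor, a subunit and a cofactor that differed widely between arrays, and to Ier3, which moved the other way. They run 5′ to 3′ on the gene's strand from 250 bases before the start through the first 30 transcribed bases, and capitals mark matches to either motif.
Nfkbia, chr12:55492618-55492897, minus strand: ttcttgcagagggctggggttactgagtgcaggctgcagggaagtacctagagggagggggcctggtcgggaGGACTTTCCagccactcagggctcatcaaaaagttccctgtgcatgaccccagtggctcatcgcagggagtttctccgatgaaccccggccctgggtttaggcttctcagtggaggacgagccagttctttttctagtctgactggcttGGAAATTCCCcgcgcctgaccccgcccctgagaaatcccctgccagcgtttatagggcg
Nfkb2 (first of 3 start sites), chr19:46304487-46304766, plus strand: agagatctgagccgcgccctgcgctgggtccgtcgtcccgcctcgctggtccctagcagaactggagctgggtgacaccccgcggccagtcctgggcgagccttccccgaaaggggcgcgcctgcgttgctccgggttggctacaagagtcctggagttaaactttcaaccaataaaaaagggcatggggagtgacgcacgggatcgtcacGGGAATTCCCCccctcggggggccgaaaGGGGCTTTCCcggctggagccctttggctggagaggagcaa
Bcl3, chr7:19822726-19823005, minus strand: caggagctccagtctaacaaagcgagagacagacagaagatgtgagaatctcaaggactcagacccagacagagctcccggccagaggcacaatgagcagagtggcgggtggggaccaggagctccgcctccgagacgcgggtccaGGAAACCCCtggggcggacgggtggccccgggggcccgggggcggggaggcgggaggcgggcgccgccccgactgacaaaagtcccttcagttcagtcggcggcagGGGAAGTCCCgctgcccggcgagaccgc
Ier3, chr17:35821463-35821742, plus strand: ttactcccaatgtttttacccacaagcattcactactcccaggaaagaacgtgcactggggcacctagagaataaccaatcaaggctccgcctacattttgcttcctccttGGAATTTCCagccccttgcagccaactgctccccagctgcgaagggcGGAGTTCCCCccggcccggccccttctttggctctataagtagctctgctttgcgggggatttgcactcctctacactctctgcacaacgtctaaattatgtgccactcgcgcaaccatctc
In Nfkbia, the matches lay at -178 to -170 and at -29 to -20 relative to the start. In Nfkb2, they lay at -39 to -29 and at -11 to -2. Those of Bcl3 lay at -104 to -96 and, just inside the transcript, at 3 to 12. Ier3 held a match at -139 to -131 and another at -92 to -83. A match is a run of letters and was not tested for binding.

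**Figure D1:**
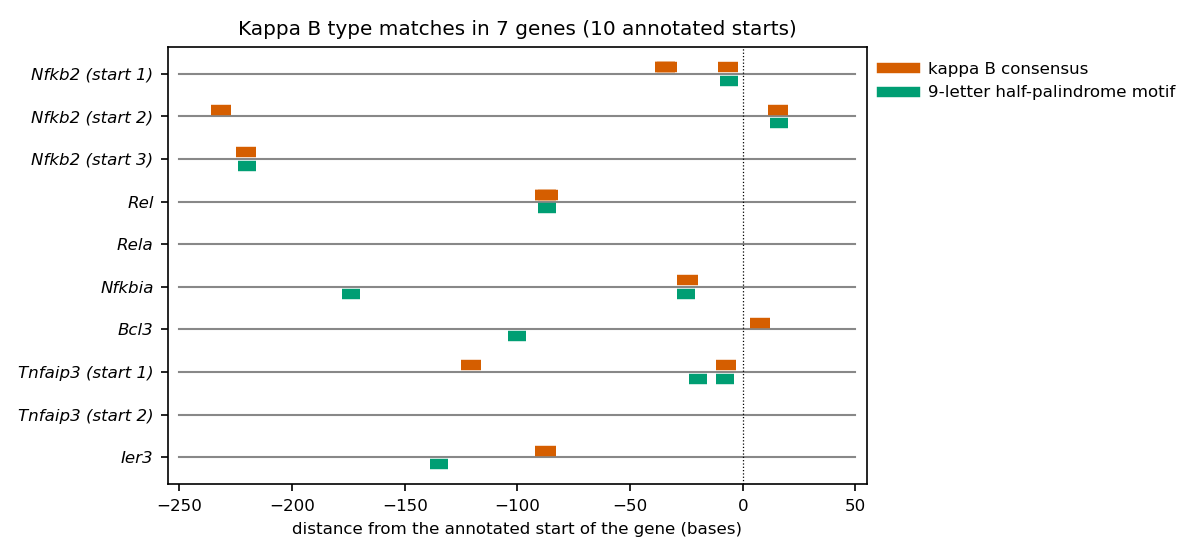
Positions of matches to the kappa B consensus (orange) and to the motif GGNNTTTCC (green) in the promoters of 7 members at 10 annotated start sites. The horizontal axis is the distance from the start in bases. Rela and the second start site of Tnfaip3 hold no match, and the other 8 start sites hold a match to each motif.

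A level below is the log2 of a probe's processed signal relative to the 75th percentile of signal on its array, so 0 is the 75th percentile. Levels of different genes come from different probes and are not set against each other. A gene was called higher or lower at 2-fold. The scanner software put the error of a member's log2 difference at 0.20 to 0.22, which covers the spot alone. The cocultures of Pla2g3+/+ mast cells and of wild-type mast cells on Lpar1+/+ fibroblasts, both wild type, were set against each other: their log2 differences had an SD of 0.26 over 21930 genes, and 95% lay within 0.54. No member differed 2-fold between them, against 0.803% of genes higher and 0.166% lower. The members' median was 0.39, against -0.01 over all genes, with Nfkbiz at 0.75, Nfkbia at 0.66, Tnfaip3 at 0.50 and Bcl3 at 0.49 higher on the Lpar1+/+ array. These 4 differences show how far wild-type cocultures could lie apart for these genes.

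Between 70.7% and 80.4% of spots were well above background on an array, and the 75th percentile of signal was between 1230 and 1520. Both arrays without fibroblasts lay on one slide and the 4 cocultures on the other, so coculture and slide cannot be told apart. The signal of Pla2g3 went against its label, with levels of -1.84 and 0.51 on the arrays labelled Pla2g3-/- in coculture and alone, against -7.31 and -6.31 on the matching Pla2g3+/+ arrays. That genotype is therefore called by its label throughout, and directions drawn from it rest on the label. The Lpar1 probe read -3.89 with Lpar1-/- and -4.14 with Lpar1+/+ fibroblasts, and it was brighter without fibroblasts (-2.85 and -2.84), so it does not check the fibroblast label. All 11 mast cell markers were well above background on every array, with a summed linear level between 567 and 739. Within that sum, Mcpt4, Tpsb2 and Hdc were lower and 0 markers higher under the Pla2g3-/- label in coculture and with Lpar1-/- fibroblasts. Over all genes, 10.4% and 8.84% were lower and 9.1% and 11.3% higher. With coculture these 3 were higher for Pla2g3+/+ mast cells, and Mcpt4 and Tpsb2 under the label, with 0 lower. There 13.0% and 11.4% of all genes were higher and 7.52% and 7.3% lower. Fibroblast markers summed to 16.2 to 38.0 in the cocultures and to 0.195 and 0.391 without fibroblasts, so fibroblast RNA was present in each coculture sample.

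**Figure D2:**
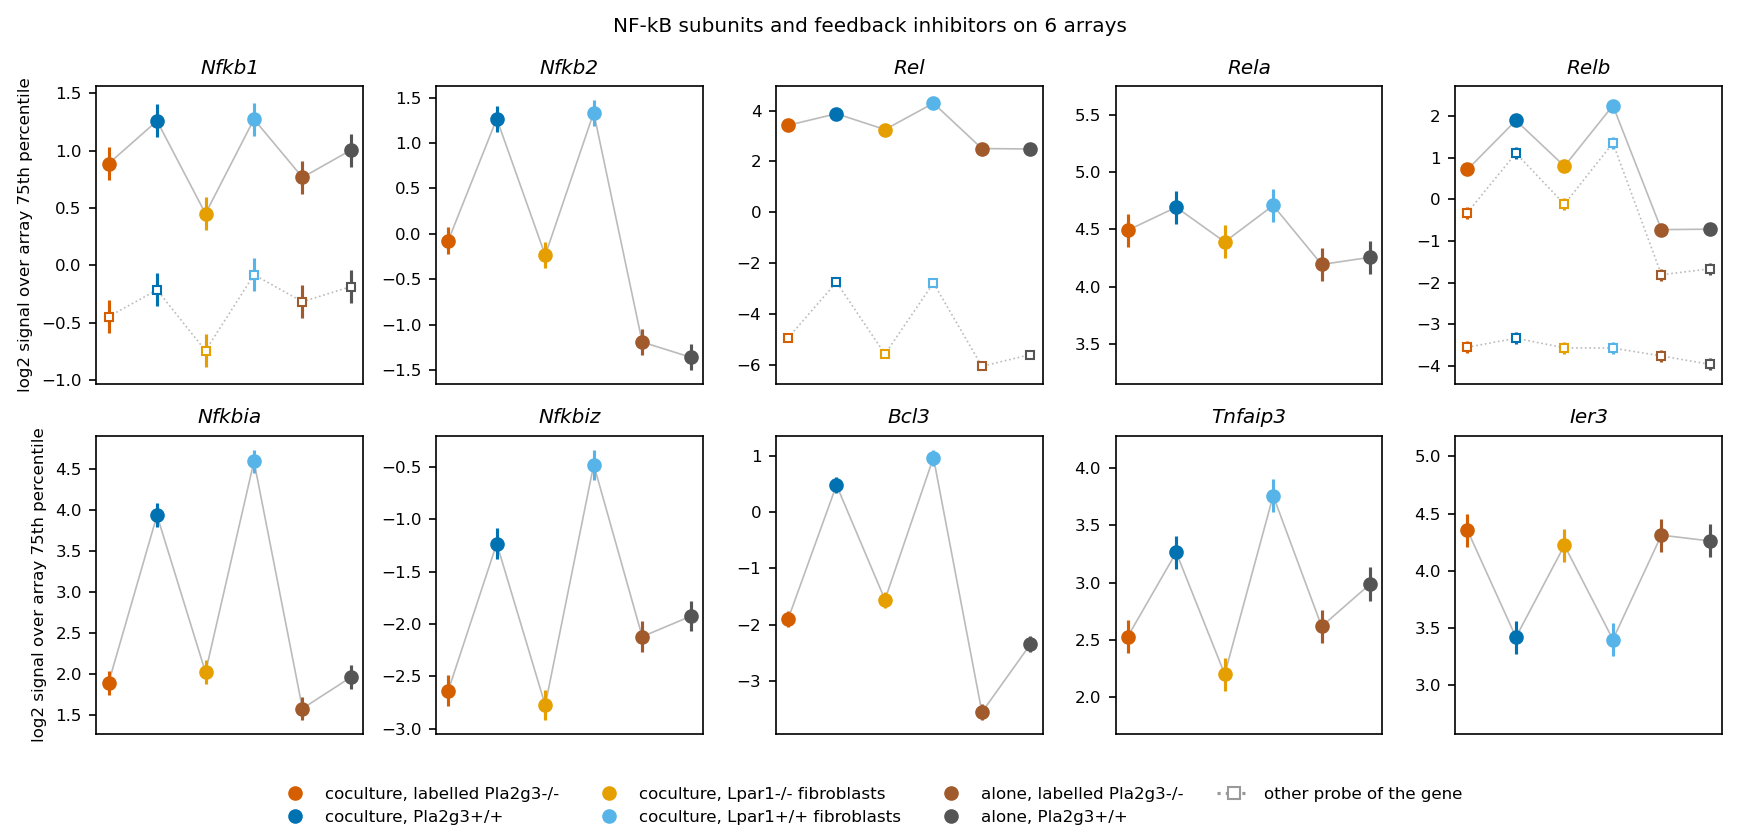
Log2 level of each member (vertical axes, which differ in range between panels) on the 6 arrays. Filled circles are the brightest probe of a gene, open squares its other probes, and bars the scanner's spot error. Nfkb2, Rel, Rela, Relb and Bcl3 lie higher on all 4 coculture arrays than without fibroblasts, and Ier3 is low on both wild-type cocultures.

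Coculture was accompanied by higher signal of the subunit genes Nfkb2, Relb and Rel. Nfkb2 encodes the precursor of the subunit of the noncanonical pathway, and Relb its usual partner. Nfkb2 read -0.07 in the coculture labelled Pla2g3-/- and 1.27 in the Pla2g3+/+ coculture, against -1.19 and -1.36 on the matching arrays without fibroblasts. On Lpar1-/- fibroblasts its level was -0.24, and on Lpar1+/+ fibroblasts 1.33. All 4 cocultures thus lay above both arrays without fibroblasts, and among the cocultures the wild-type pair lay above the other two. With coculture, Nfkb2 was 2.17-fold higher for mast cells labelled Pla2g3-/- and 6.16-fold higher for Pla2g3+/+ mast cells. Its probe (chromosome 19, 46386146 to 46386285, mm9) spans 140 bases of the genome with 60 bases of sequence, and so crosses a splice junction.

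Relb also lay higher on all 4 cocultures than without fibroblasts, with the wild-type pair on top. It had a level of 0.72 in the coculture labelled Pla2g3-/- and 1.90 in the Pla2g3+/+ coculture, against -0.72 and -0.71 without fibroblasts. With Lpar1-/- fibroblasts it read 0.80, and with Lpar1+/+ fibroblasts 2.26. Coculture thus went with a 2.72-fold higher signal for mast cells labelled Pla2g3-/- and a 6.12-fold higher signal for Pla2g3+/+ mast cells. The probe at chromosome 7, 20191722 to 20191781, stands for the gene. A second probe at 20191773 to 20191832 overlaps it by 9 bases and gave 2.82-fold and 6.87-fold. The third, at 20203058 to 20203117, disagreed, with levels between -3.96 and -3.33 and no 2-fold difference in any comparison.

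Rel encodes c-Rel, a subunit prominent in cells of the immune system. Its brighter probe (chromosome 11, 23637051 to 23637110) read 3.42 in the coculture labelled Pla2g3-/- and 3.87 in the Pla2g3+/+ coculture, against 2.50 and 2.49 without fibroblasts. The level was 3.25 with Lpar1-/- fibroblasts and 4.29 with Lpar1+/+ fibroblasts. Again no coculture overlapped with the arrays without fibroblasts. Coculture gave a difference of 0.92 (1.89-fold, short of the threshold) under the Pla2g3-/- label and 1.39 (2.62-fold) for Pla2g3+/+. The dimmer Rel probe, for which the files give an interval of only 15 bases, read -4.95 and -2.75 in these cocultures, against -6.06 and -5.60 without fibroblasts, so its differences, 2.16-fold and 7.19-fold, were larger.

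Rela and Nfkb1, which encode the subunits of the classical dimer, had the narrowest ranges over the 6 arrays. Rela (chromosome 19, 5648070 to 5648129) ranged over 1.43-fold across all arrays, with levels of 4.49 in the coculture labelled Pla2g3-/- and 4.69 in the Pla2g3+/+ coculture, against 4.19 and 4.26 without fibroblasts. Nfkb1 (chromosome 3, 135247621 to 135247680) ranged over 1.77-fold and had levels of 0.89 and 1.26 in these cocultures, against 0.77 and 1.01 without fibroblasts. Its lowest level, 0.45, was on Lpar1-/- fibroblasts, against 1.27 on Lpar1+/+ fibroblasts, and its second probe (135254550 to 135254609) was likewise lowest there, at -0.74.

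The inhibitor gene Nfkbia encodes IkB-alpha, which is resynthesised after each round of activation and carries NF-kB back out of the nucleus. It read 1.89 in the coculture labelled Pla2g3-/- and 3.93 in the Pla2g3+/+ coculture, against 1.57 and 1.96 without fibroblasts. With Lpar1-/- fibroblasts it read 2.02, and with Lpar1+/+ fibroblasts 4.59. Only the wild-type cocultures therefore stood well above the arrays without fibroblasts. The coculture difference was 0.31 under the Pla2g3-/- label and 1.98 (3.93-fold) for Pla2g3+/+. The sequences of its probe and of the Nfkb2 probe, both read across a splice junction with an open reading frame, are shown because the results for each of these genes rest on 1 probe.
Nfkbia probe, mm9 chr12:56590945-56591440, minus strand: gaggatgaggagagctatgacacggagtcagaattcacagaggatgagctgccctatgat
Nfkb2 probe, mm9 chr19:46386146-46386285, plus strand: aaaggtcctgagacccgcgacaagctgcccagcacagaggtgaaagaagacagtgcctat

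Bcl3 encodes a nuclear IkB-like cofactor that binds homodimers of the small subunits. Its probe (chromosome 7, 20393826 to 20393885) had the widest range of the 10 members, 23.2-fold. The level was -1.91 in the coculture labelled Pla2g3-/- and 0.48 in the Pla2g3+/+ coculture, against -3.56 and -2.35 without fibroblasts. On Lpar1-/- fibroblasts it was -1.56, and on Lpar1+/+ fibroblasts 0.97. All cocultures lay above both arrays without fibroblasts, by 3.15-fold under the Pla2g3-/- label and 7.13-fold for Pla2g3+/+ against the matching array. Bcl3 was also the 1 member past 2-fold without fibroblasts, where it was 2.31-fold lower under the Pla2g3-/- label. With normexp background correction that difference was -0.86 on the log2 scale, short of 2-fold.

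Nfkbiz encodes IkB-zeta, an inducible nuclear cofactor of secondary response genes. It read -2.63 in the coculture labelled Pla2g3-/- and -1.23 in the Pla2g3+/+ coculture, against -2.12 and -1.93 without fibroblasts. The level was -2.77 with Lpar1-/- fibroblasts, the lowest of the 6, and -0.48 with Lpar1+/+ fibroblasts, the highest (chromosome 16, 55817859 to 55817918). Its coculture differences, -0.51 under the Pla2g3-/- label and 0.69 for Pla2g3+/+, were both within 2-fold, and with the Lpar1+/+ array as the wild-type coculture the second was 1.45.

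Tnfaip3 encodes a ubiquitin-editing enzyme that shuts off signalling upstream of the kinase. It read 2.53 in the coculture labelled Pla2g3-/- and 3.26 in the Pla2g3+/+ coculture, against 2.62 and 2.99 without fibroblasts. With Lpar1-/- fibroblasts its level was 2.20, and with Lpar1+/+ fibroblasts 3.76 (chromosome 10, 18720776 to 18720835). Like Nfkbiz, it was lower on the Lpar1-/- array and the coculture labelled Pla2g3-/- than on any other array, though for Tnfaip3 that coculture and its array without fibroblasts differed by only -0.09, less than the spot error.

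Ier3, an early response gene that restrains cell death and NF-kB activity, ran opposite to the rest. Its levels were 4.35 in the coculture labelled Pla2g3-/- and 3.42 in the Pla2g3+/+ coculture, against 4.31 and 4.26 without fibroblasts. It read 4.22 with Lpar1-/- and 3.40 with Lpar1+/+ fibroblasts (chromosome 17, 35959528 to 35959587). The 4 other arrays lay within 4.22 to 4.35, and the wild-type cocultures lay apart below them, though by less than 2-fold.

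Counted together, 3 of 10 members were higher and 0 lower with coculture of mast cells labelled Pla2g3-/-, where 11.4% of 22349 genes were higher and 7.3% lower. For Pla2g3+/+ mast cells, 5 were higher and 0 lower, where 13.0% of 22615 genes were higher and 7.52% lower. The members' median differences were 0.31 and 1.04, against 0.12 and 0.13 over all genes. Quantile normalization put the all-gene medians at 0.02 and 0.00, and the upward share of all 2-fold genes at 50.3% and 48.8%, against 61.0% and 63.4%. Rel under the Pla2g3-/- label then reached 1.01, and the members past 2-fold for Pla2g3+/+ were again 5. Nfkb2, Rel, Rela, Relb and Bcl3, or 5 of 10 members, had all 4 cocultures above both arrays without fibroblasts, as did 28.1% of all genes. Fewer cells of a type and less RNA per cell cannot be told apart in these samples. Fibroblast markers moved with these differences (13 of 14 compared markers were higher under either genotype, and Thy1 was lower), and fibroblasts express NF-kB genes as well. Their part in the result was not tested. The neutrophil and eosinophil markers summed to 2.22 and 4.31 in the cocultures of mast cells labelled Pla2g3-/- and Pla2g3+/+, against 2.83 and 42.2 without fibroblasts. Macrophage and dendritic markers summed to 4.30 and 10.7 in these cocultures, against 2.85 and 3.73 without fibroblasts. Of 11 compared, 3 were higher and 3 lower under the Pla2g3-/- label, and 4 were higher and 1 lower for Pla2g3+/+. For Pla2g3+/+, Mrc1 (9.68-fold) and Cd68 (5.07-fold) were among the higher ones, and Adgre1 (5.44-fold) was the lower one. The part of these cells was not tested either.

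**Figure D3:**
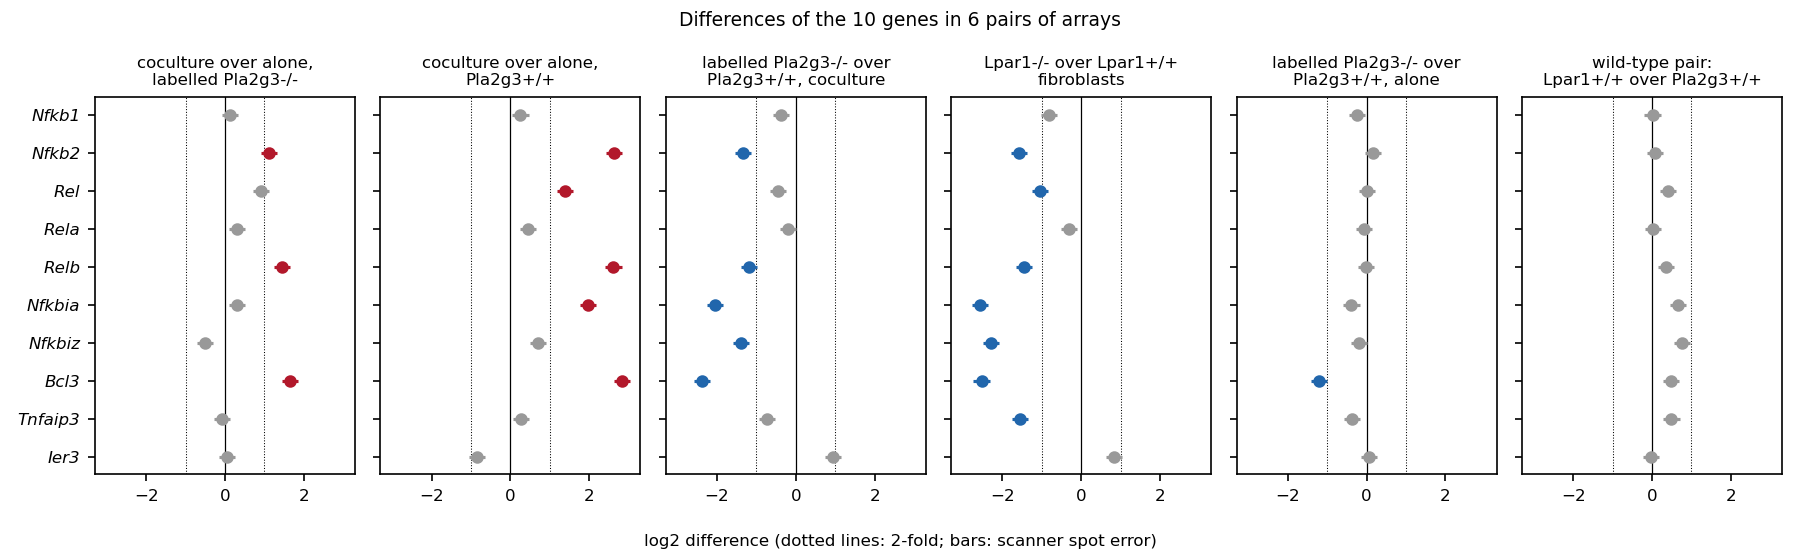
Log2 differences of the 10 members (rows) in 6 pairs of arrays (panels), with bars for the scanner's spot error. Red points are at least 2-fold higher and blue points at least 2-fold lower. In both genotype comparisons of cocultures the points lie left of 0 except for Ier3, and in the wild-type pair no point reaches 2-fold.

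Without fibroblasts, 9 of 10 members were within 2-fold between the genotypes. Of 10 members, 0 were higher and 1, Bcl3, was lower under the Pla2g3-/- label, where 0.423% of 21752 genes were higher and 1.58% lower. The members' median was -0.13, against 0.00 over all genes. Nfkbia (-0.38), Tnfaip3 (-0.37) and Nfkb1 (-0.24) read lower within 2-fold, and Rel (0.02), Relb (-0.01) and Rela (-0.06) differed by less than the spot error. Markers of other cell types were lower under the label as well. Of 14 neutrophil and eosinophil markers, 0 were higher and 11 lower (median -3.96), with sums of 2.83 under the label and 42.2 for Pla2g3+/+. Of 11 macrophage and dendritic markers, 0 were higher and 5 lower, with sums of 2.85 and 3.73. Their part in the Bcl3 difference was not tested.

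In coculture, the inhibitor gene Nfkbia, the cofactor genes Bcl3 and Nfkbiz and both noncanonical subunits were lower under the Pla2g3-/- label. Bcl3 was 5.24-fold, Nfkbia 4.13-fold, Nfkbiz 2.64-fold, Nfkb2 2.53-fold and Relb 2.26-fold lower than on the Pla2g3+/+ array. Tnfaip3 (-0.73), Rel (-0.46), Nfkb1 (-0.37) and Rela (-0.20) read lower within 2-fold, and Ier3 read higher by 0.93. That made 0 of 10 members higher and 5 lower, where 9.1% of 22505 genes were higher and 10.4% lower. The median was -0.96, against -0.08 over all genes. With the Lpar1+/+ array as the wild-type coculture, Tnfaip3 reached -1.23 and the median -1.32. Over the mean of its probes Rel was past the threshold at -1.32 and Relb within it at -0.94. Fibroblast markers were also lower here, 8 of 14 past 2-fold, with sums of 16.2 under the Pla2g3-/- label and 35.9 for Pla2g3+/+. Macrophage and dendritic markers summed to 4.30 and 10.7. Their part in the result was not tested.

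The coculture effect itself also differed between the labels, and for all members but Nfkb2 and Rel by less than the cocultures did. In the difference of effects, the Pla2g3-/- label minus Pla2g3+/+, the slide cancels. It was -1.66 for Nfkbia, -1.51 for Nfkb2, -1.21 for Nfkbiz, -1.18 for Bcl3 and -1.17 for Relb. Thus 0 of 10 members were higher and 5 lower, where 9.81% of 19768 genes were higher and 8.97% lower. Nfkb1 (-0.13) and Rela (-0.14) differed by less than the spot error of a single difference, and Ier3 stood at 0.88. The median was -0.82, against -0.03 over all genes. Over the mean of its probes Relb was within 2-fold at -0.96, and Rel past it at -1.10. Of 6 fibroblast markers, 0 were higher and 3 lower in this difference (median -0.96). Of 11 neutrophil and eosinophil markers, 10 were higher and 0 lower, and of 10 macrophage and dendritic markers, 1 was higher and 3 lower. The part of any of these cells was not tested.

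Lpar1-/- fibroblasts went with lower signal of 7 members in wild-type mast cell cocultures. Nfkbia was 5.96-fold, Bcl3 5.77-fold, Nfkbiz 4.90-fold, Nfkb2 2.97-fold, Tnfaip3 2.94-fold, Relb 2.75-fold and Rel 2.05-fold lower than with Lpar1+/+ fibroblasts. Nfkb1 (-0.82) and Rela (-0.32) read lower within 2-fold, and Ier3 read higher by 0.82. None of the 10 was 2-fold higher, where 11.3% of 24545 genes were higher and 8.84% lower. The median was -1.51, against -0.05 over all genes. Against the other wild-type coculture array, the Pla2g3+/+ one, Rel was at -0.62, no longer 2-fold, and the median at -1.08. Quantile normalization also put Rel within 2-fold, at -0.84. Over the mean of its probes Relb was within 2-fold at -0.98, and Rel at -1.92. Fibroblast markers summed to 38.0 with Lpar1-/- and 37.2 with Lpar1+/+ fibroblasts. Single markers differed more than the sums, with a median over 15 markers of -0.25. Past 2-fold, 5 of the 15 were higher, Thy1 (196-fold) and Timp1 (6.49-fold) among them, and 1, Col6a1, was lower. Neutrophil and eosinophil markers summed to 13.7 and 4.62 in the same order of arrays, and macrophage and dendritic markers to 2.99 and 10.4. Among 12 neutrophil and eosinophil markers compared, 11 were higher and 0 lower (median 1.95). Of 12 macrophage and dendritic markers compared, 1, Itgax, was higher (6.32-fold) and 5 were lower. Cd68, which weighed most in these sums, was 8.21-fold lower. The part of any of these cells was not tested.

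Both genotype comparisons of cocultures share no array, though all 4 arrays lay on the same slide. Over the 10 members their differences correlated with r = 0.96, and 10 of 10 had the same sign. Bcl3, Nfkbia, Nfkbiz, Nfkb2 and Relb were lower in both, which is 100% of the 5 lower under the Pla2g3-/- label and 71.4% of the 7 lower with Lpar1-/- fibroblasts. Over the 20754 genes measured in both, r was 0.86, and 17009 genes had the same sign. Of these genes, 1384 were lower in both, 70.0% and 73.1% of those lower in each. Members and genes are not independent replicates, and most genes outside the pathway had the same sign as well. In level, 9 of 10 members had both the coculture labelled Pla2g3-/- and the Lpar1-/- coculture below both wild-type cocultures, as did 36.6% of all genes. The remaining member, Ier3, had both above, as did 31.2%.

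**Figure D4:**
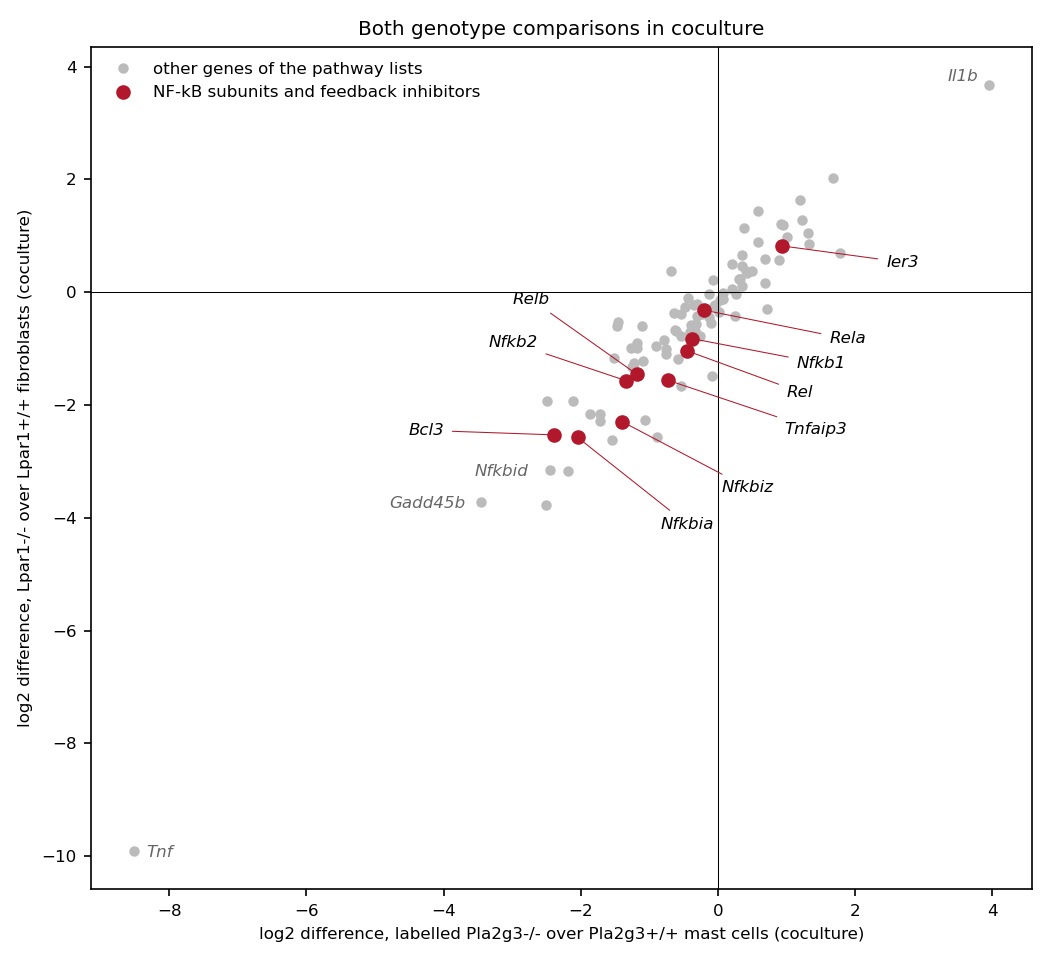
Log2 difference of each gene under the Pla2g3-/- label in coculture (horizontal axis) and with Lpar1-/- fibroblasts (vertical axis). Red points are the 10 members and grey points other genes of the pathway lists that were measured on all 4 arrays. Members lie from Ier3 at 0.93 and 0.82 to Bcl3 at -2.39 and -2.53, and Tnf lies far below at -8.52 and -9.90.

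The members fell into sets by their order over the arrays, described here by Pearson correlations over 6 arrays that share slides and scaling. Nfkb2, Rel, Rela and Relb correlated at 0.98 to 0.99 with each other. Nfkbiz and Tnfaip3 correlated at 0.98, and Nfkb1 with Tnfaip3 at 0.93. Nfkbia stood between these sets, at 0.91 with Nfkb2 and 0.90 with Nfkbiz, and Ier3 mirrored Nfkbia at -0.98. Bcl3 correlated at 0.95 with Relb and at 0.96 with Nfkbia. Nfkb2, Rel, Rela and Relb thus shared a low level on the arrays without fibroblasts, whereas Nfkbiz, Tnfaip3 and Nfkb1 were lowest on the Lpar1-/- array.

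Of 3 other IkB genes, Nfkbid was lower in both genotype comparisons of cocultures, and the other two in 1 each. Nfkbid, which encodes another inducible nuclear IkB protein, read 1.54 in the coculture labelled Pla2g3-/- and 4.00 in the Pla2g3+/+ coculture, and 1.5 with Lpar1-/- against 4.65 with Lpar1+/+ fibroblasts. It was 5.48-fold lower under the Pla2g3-/- label and 8.91-fold lower with Lpar1-/- fibroblasts. Nfkbie, a cytoplasmic inhibitor, was 2.28-fold lower under the label, and Nfkbib, another, 2.12-fold lower with Lpar1-/- fibroblasts. Nfkbib was within 2-fold under the label (-0.75), as was Nfkbie with Lpar1-/- fibroblasts (-0.89). With coculture, 0 of 3 were past 2-fold under the Pla2g3-/- label, while Nfkbid alone was 5.05-fold higher for Pla2g3+/+. Over all genes in coculture, 9.1% were higher and 10.4% lower under the label, and 11.3% and 8.84% with Lpar1-/- fibroblasts. For coculture over mast cells alone, the shares were 11.4% higher and 7.3% lower under the label, and 13.0% and 7.52% for Pla2g3+/+.

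Among ligands that activate the pathway, Tnf and Il1b moved in opposite directions. Tnf, tumour necrosis factor, read -6.47 in the coculture labelled Pla2g3-/- and 2.04 in the Pla2g3+/+ coculture, and -7.33 with Lpar1-/- against 2.58 with Lpar1+/+ fibroblasts. Without fibroblasts it read -1.80 and -1.78. Il1b, interleukin-1 beta, read -1.87 in the coculture labelled Pla2g3-/- and -5.83 in the Pla2g3+/+ coculture, and -1.94 with Lpar1-/- against -5.61 with Lpar1+/+ fibroblasts. Tnf was thus lowest, and Il1b highest among the cocultures, where Nfkbia was low. Tnfsf14, a ligand of the lymphotoxin beta receptor, was 5.68-fold lower under the label and 13.7-fold lower with Lpar1-/- fibroblasts, and Il33, an alarmin, at least 9.0-fold lower under the label and at least 15.3-fold lower with Lpar1-/- fibroblasts. In each comparison 2 of 10 ligands were higher and 4 lower, where 9.1% of all genes were higher and 10.4% lower under the label, and 11.3% and 8.84% with Lpar1-/- fibroblasts.

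Receptor genes went both ways with coculture. Of 16 compared, 3 were higher and 3 lower with coculture under the Pla2g3-/- label, and 5 higher and 1 lower for Pla2g3+/+. Over all genes, 11.4% were higher and 7.3% lower under the label, and 13.0% and 7.52% for Pla2g3+/+. Tnfrsf1a, the main receptor for tumour necrosis factor, read -2.32 in the coculture labelled Pla2g3-/- and -0.85 in the Pla2g3+/+ coculture, against -7.83 and -3.84 without fibroblasts. Il1r1, the interleukin-1 receptor, was at least 27.6-fold higher under the label and 19.1-fold higher for Pla2g3+/+. Both are widely expressed by fibroblasts, whose markers moved with this comparison. The part of fibroblast RNA in these receptor differences was not tested. In coculture, 0 of 16 receptors were higher and 5 lower under the Pla2g3-/- label, and 1 was higher and 3 lower with Lpar1-/- fibroblasts, beside the shares over all genes given for the ligands. Ltbr, the lymphotoxin beta receptor, was lower in both, by 2.85-fold and 2.25-fold. So were Il1r1, by 2.12-fold and 2.32-fold, and Tlr1, by 2.34-fold and 2.37-fold. The signal of Tlr1 was weak, though well above background, at -7.60 in the coculture labelled Pla2g3-/- and -8.04 with Lpar1-/- fibroblasts.

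Of 29 kinases and adaptors between receptor and NF-kB, 4 were higher and 1 lower under the Pla2g3-/- label in coculture, where 9.1% of all genes were higher and 10.4% lower. With Lpar1-/- fibroblasts 3 were higher and 3 lower, where 11.3% of all genes were higher and 8.84% lower. In total these counts lie near the share of all genes. The genes of the core kinase complex, Chuk (-0.54 and -0.39), Ikbkb (0.41 and 0.37) and Ikbkg (0.50 and 0.37), were all within 2-fold. Irak3, an inhibitory member of the interleukin-1 receptor kinases, was 3.21-fold and 4.08-fold higher, and Traf1, an adaptor and NF-kB target, 2.38-fold and 2.51-fold lower. Map3k8, a kinase bound by the Nfkb1 precursor, was 5.90-fold lower with Lpar1-/- fibroblasts and 1.85-fold lower under the label. It differed 2.55-fold between the wild-type cocultures too, higher on the Lpar1+/+ array.

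Among 11 further brakes on the pathway, 2 were higher and 2 lower under the Pla2g3-/- label in coculture, and 1 was higher and 2 lower with Lpar1-/- fibroblasts. Counts this small cannot be set apart from the 9.1% higher and 10.4% lower of all genes under the label, or the 11.3% and 8.84% with Lpar1-/- fibroblasts. Zfp36 and Zc3h12a, whose proteins destroy inflammatory messenger RNAs, were lower in both. Zc3h12a was 3.65-fold lower under the label and 4.48-fold lower with Lpar1-/- fibroblasts, and Zfp36 was 3.29-fold and 4.49-fold lower. Cyld, a deubiquitinase, was 2.29-fold and 3.10-fold higher, and Itch, a ubiquitin ligase that works with the Tnfaip3 protein, was 2.50-fold higher under the label and 1.82-fold with Lpar1-/- fibroblasts.

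Of 29 genes widely listed as NF-kB targets, 1 was higher and 14 lower under the Pla2g3-/- label in coculture, and 3 were higher and 13 lower with Lpar1-/- fibroblasts. Over all genes, 9.1% were higher and 10.4% lower under the label, and 11.3% and 8.84% with Lpar1-/- fibroblasts. Medians were -0.89 and -0.98, against -0.08 and -0.05 over all genes. Gadd45b, a stress gene that limits kinase signalling, was 11.0-fold and 13.2-fold lower, the chemokine gene Ccl2 4.57-fold and 8.98-fold lower, and Csf2, a growth factor gene, 5.64-fold and 3.80-fold lower. Il1b was 15.5-fold and 12.7-fold higher. Ptgs2 (2.72-fold) and Ccl5 (2.32-fold) were higher with Lpar1-/- fibroblasts and within 2-fold under the label. The bound for Cxcl2, a neutrophil chemokine gene, was at least 6.63-fold lower under the label and at least 25.3-fold lower with Lpar1-/- fibroblasts. Cxcl2 also differed 2.97-fold between the wild-type cocultures, higher on the Lpar1+/+ array. The target list shares Tnf, Il1b, Traf1, Nfkbie and Nfkbid with the lists above. With coculture, 9 of 26 targets were higher and 4 lower under the Pla2g3-/- label (median -0.14), and 16 of 29 were higher and 3 lower for Pla2g3+/+ (median 1.14), where 11.4% and 13.0% of all genes were higher and 7.3% and 7.52% lower. Without fibroblasts, 0 of 23 were higher and 1 lower under the label, where 0.423% of all genes were higher and 1.58% lower.

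**Figure D5:**
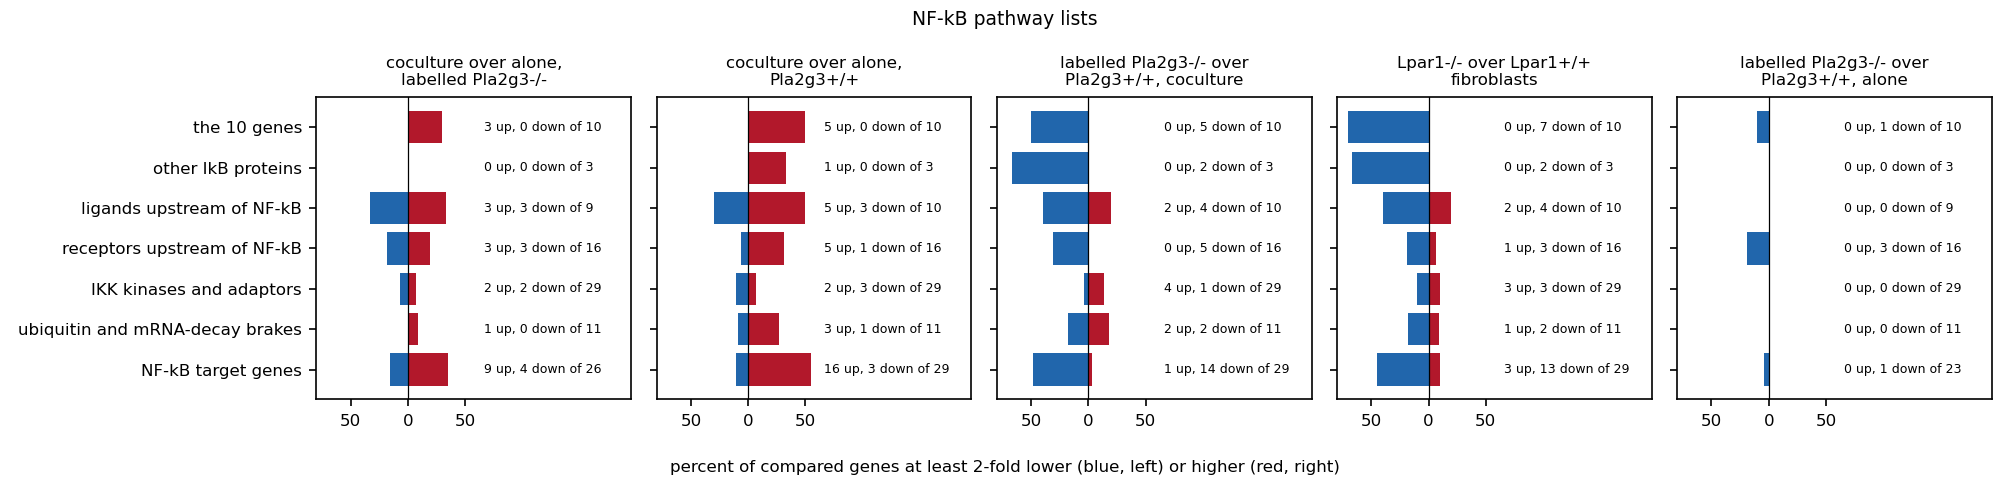
Percent of compared genes of each list that were at least 2-fold lower (blue, to the left) or higher (red, to the right) in 5 comparisons (panels), with counts beside the bars. The 10 members, target genes, other IkB proteins, ligands and receptors lean to the left in both genotype comparisons of cocultures. Kinases and adaptors do so in neither, and the brakes only with Lpar1-/- fibroblasts.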

How the data were processed

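RNA of 6 mast cell cultures was hybridised to 6 single-colour Agilent arrays, each a pool of 3 samples. Per the file headers, the authors used Agilent Feature Extraction 12.1.1.1 to obtain spot intensity, with background subtraction, spatial detrending and surrogate values for dim spots. No member spot used that surrogate or was an outlier. The deposited value table is a linear intensity, equal to the processed signal divided by each array's 75th percentile (column medians 0.0380 to 0.0534), and gave an alternative. From the scanner files, log2 of the processed signal minus the log2 75th percentile over 43020 noncontrol spots was computed (Python 3.11.15, pandas 2.3.3). Spots of a probe were averaged, which kept 39416 of 39429 probes, and the probe with the brightest mean stood for its gene. Names came from the gene table of GRCm38.p6 by accession (33002 spots), symbol (3072) or synonym (16), or from the file (6930). Probe coordinates are those of the files (mm9), and their exon or untranslated region was not looked up, since no mm9 annotation was used.

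A gene was compared where at least 1 array of the pair was well above background, and in the difference of effects only where every array used was. Where the other array was dim, the text writes "at least" before a fold, taken against either the dim probe's signal or the lowest well-detected signal of that array, whichever was higher. No p-value can be had with 1 array per group, and precision is limited by the number of arrays. The comparison script was tested on simulated data. Members, lists and rules were chosen with earlier results of these data known. Genes named outside the members are, per list and comparison, up to 3 highest and 3 lowest past 2-fold and the largest bound each way. Nfkbib, the core kinase genes, the cell type markers named singly and the values given beside a named gene in other comparisons, which need not pass 2-fold, were picked after their values were seen. Alternatives included quantile normalization and normexp background correction with an offset of 50 (limma 3.58.1, R 4.3.3), other probe rules, filters and thresholds, and exchange of the wild-type coculture arrays.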

Additional observations from a re-analysis of the deposited data

Results flagged for a closer look

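The coculture differences of 3 members had opposite signs for the mast cell genotypes. Nfkbiz stood at -0.51 under the Pla2g3-/- label and 0.69 for Pla2g3+/+, on the log2 scale. Ier3 stood at 0.042 and -0.84 in the same order, and Tnfaip3 at -0.089 and 0.28. With 1 array per group these differences between genotypes were not tested, and all 6 values are within 2-fold. The values for Ier3 and Tnfaip3 under the Pla2g3-/- label are smaller than the spot error of a difference, 0.20. With quantile normalization the Tnfaip3 value under the label was 0.01, so that its sign was then the same for both genotypes.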

How the results depend on the processing

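No paired analysis was possible because each group has 1 array. No member past 2-fold changed direction under any alternative run. Of the counts and medians recomputed, 203 stayed close to the values given and 19 moved, and of single-gene differences 706 and 34. Quantile normalization made 1 member, Ier3, higher under the Pla2g3-/- label in coculture (1.05), with Lpar1-/- fibroblasts (1.07) and in the difference of effects (1.01). Normexp background correction left 0 members lower under the label without fibroblasts, and the mean over probes put the coculture median for Pla2g3+/+ at 1.33. At 3-fold, 1 member was higher with coculture under the label, 0 were lower under the label without fibroblasts, 2 under the label in coculture, 3 with Lpar1-/- fibroblasts and 1 in the difference of effects. In the same order and directions, all genes past 3-fold numbered 1054 of 22349, 171 of 21752, 1003 of 22505, 964 of 24545 and 722 of 19768. At 1.5-fold, 1 was lower with coculture for Pla2g3+/+, 1 was higher in each of the label in coculture, Lpar1-/- fibroblasts and the difference of effects, and 2 were higher in the wild-type pair. All genes past 1.5-fold numbered, in that order and in those directions, 3310 of 22615, 3907 of 22505, 4978 of 24545, 3788 of 19768 and 969 of 24025. With the other wild-type coculture array, medians were 1.62 for coculture of Pla2g3+/+ cells, -1.32 for the label in coculture, -1.08 for Lpar1-/- fibroblasts and -1.21 for the difference of effects. Over all genes, normexp gave 1409 higher and 1037 lower for coculture of Pla2g3+/+ cells, against 2948 and 1700, and 4 and 0 for the wild-type pair, against 193 and 40. It gave 1115 and 914, against 2547 and 1631, for coculture under the label, and 1592 and 1452, against 2770 and 2170, for Lpar1-/- fibroblasts. It gave 1339 and 1210, against 2049 and 2345, for the label in coculture, 23 and 94, against 92 and 344, for the label without fibroblasts, and 1343 and 1100, against 1939 and 1773, for the difference of effects. With no filter on dim probes, lower genes were 3205 for coculture under the label, 4007 for the label in coculture and 4361 for the difference of effects, and higher and lower genes were 722 and 994 for the label without fibroblasts and 1438 and 370 for the wild-type pair. With both arrays required above background, the last 2 comparisons had 53 and 262, and 83 and 23. By construction, the 3-fold and 1.5-fold thresholds moved all such counts, for coculture of Pla2g3+/+ cells to 1419 and 764 and to 5692 and 3310. The upward share in the wild-type pair was 45.7% with quantile normalization, against 82.8%. No spot was saturated.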

Other observations

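Genes other than the members followed single members closely over the 6 arrays, among 8223 or 8224 genes with a range of at least 1 on the log2 scale. The closest to Nfkbia were Abl2, a tyrosine kinase gene (r = 0.998), Adam15, a membrane protease gene (0.994), and Peli1, a ubiquitin ligase gene of interleukin-1 and Toll-like receptor signalling (0.994). Plau, the urokinase gene and one of the listed NF-kB targets, was closest to Rel (0.994), Tubb6, a tubulin gene, to Relb (0.998), and Armcx2 to Nfkb2 (0.999). Pygm, the muscle glycogen phosphorylase gene, was closest to both Nfkbiz (0.996) and Tnfaip3 (0.988). Csf2rb, the shared receptor chain for interleukin-3 and related cytokines, was closest to Ier3 (0.999). With 6 arrays and so many genes searched, high values arise easily, and these are given as a description.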
